A study of Homo sapiens with 6 samples.

Results

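The genes described here are 42 ribosome biogenesis and nucleolar genes, chosen by name as the cores of the small nucleolar RNA particles (snoRNPs), RNA polymerase I factors, ribosome assembly factors and other nucleolar proteins. They were 42 of the 58735 genes in the deposited table, and all 42 were among the 15089 genes tested. Many of them are known targets of MYC, a transcription factor that drives growth genes. RNA-seq was performed on PANC-1, a widely used line from a human pancreatic ductal adenocarcinoma, with no engineered genotype named in the labels. The comparison asks which transcripts change when METTL16, an m6A RNA methyltransferase, is silenced: 3 samples received control siRNA (si-NC) and 3 received siRNA against METTL16 (si-METTL16). The methods call the transfection stable and the samples biological triplicates, several siRNA sequences are listed without saying which one these samples received, and silencing of PANC-1 is elsewhere described with shRNA, so the reagent is not certain. The transfection label marks the control samples WT where their titles read si-NC. Where replicates shared a culture, which the labels do not exclude, p-values measure the spread between these samples only.

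Ribosome production starts in the nucleolus, where RNA polymerase I transcribes one long precursor of the ribosomal RNAs. Small nucleolar RNAs guide methylation (box C/D particles) and pseudouridylation (box H/ACA particles) of this precursor, while the small subunit processome and the 60S assembly factors fold and cut it into the 40S and 60S subunits. Growing tumour cells depend on a high output of this pathway, and its genes are a classical part of the MYC response.

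The canonical E-box CACGTG, the letters MYC and its partner MAX are known to bind, was searched in the RefSeq promoter windows (GRCh38.p14), each running from 250 bases before to 50 bases after an annotated start. The motif is a palindrome, so one search reads both strands. Windows were given for 34 of the 42 genes, and 17 of these held the motif in at least 1 window, against 1320 of 10389 tested genes with a window (12.7%). NOP58, TCOF1, RRP12, BOP1, RRS1, RRP1B, URB2 and NOLC1 had no window. The 8 genes below are those that held the motif and also passed the expression test, in order of fold change, with the motif in capitals, 5′ to 3′ on the strand of the gene. The positions are chr3:51941892-51941921 (minus strand) for RRP9, chr1:43172790-43172819 (minus) for EBNA1BP2, chr16:69132621-69132650 (plus) for UTP4, chr19:39846356-39846385 (minus) for FBL, chr6:41921515-41921544 (plus) for BYSL, chr4:109815781-109815810 (plus) for GAR1, chr10:68956604-68956633 (plus) for DDX21 and chr17:4555340-4555369 (minus) for MYBBP1A.
RRP9: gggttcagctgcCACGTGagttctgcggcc
EBNA1BP2: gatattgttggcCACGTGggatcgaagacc
UTP4: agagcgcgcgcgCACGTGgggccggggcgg
FBL: tgcgctcttttcCACGTGcgaaagccccgg
BYSL: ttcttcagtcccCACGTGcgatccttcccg
GAR1: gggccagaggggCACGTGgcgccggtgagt
DDX21: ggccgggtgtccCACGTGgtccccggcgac
MYBBP1A: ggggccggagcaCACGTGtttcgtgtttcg

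Of the 19 motif copies in the windows of these genes, 17 began between 64 bases before and 42 bases after a start. The copies outside that stretch were the EBNA1BP2 copy printed above, at -237, and a copy at -170 in NOP10. The median GC content was 64.2% for the windows of the 42 genes and 65.0% for those of tested genes. The motif was present in 30 of 118 other ribosome biogenesis genes (25.4%) and in 4 of 63 cytosolic ribosomal protein genes (6.35%). Since many of these genes were listed as MYC targets, the higher share describes the list and is not independent evidence. A match describes letters in a window and does not show that a factor binds there.

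**Figure D1:**
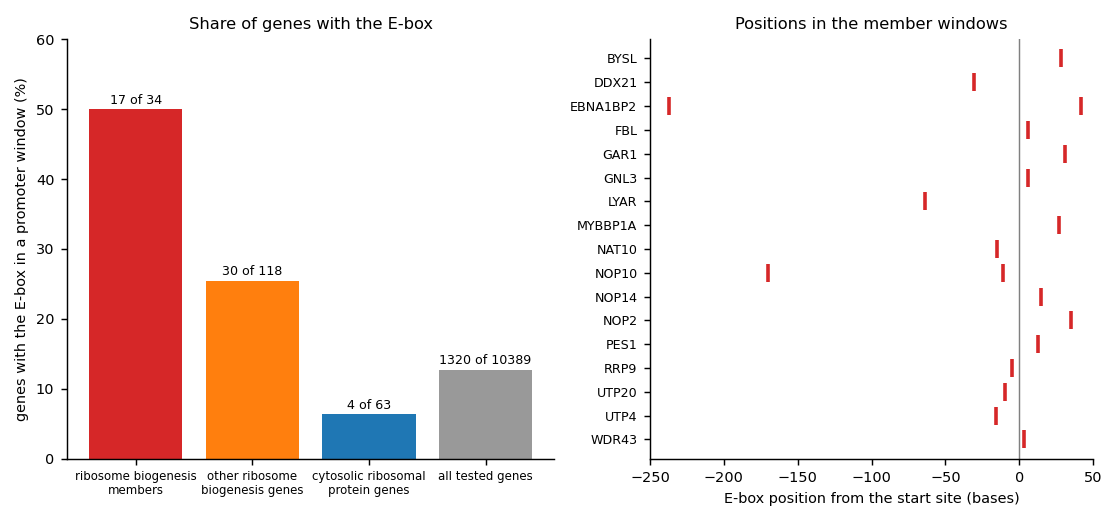
Share of genes with CACGTG in a promoter window (left, percent, bars from 0) in 4 gene lists, and position of each motif copy from the start (right, in bases) in the genes that held it. The motif was found in 17 of 34 listed genes against 1320 of 10389 tested genes, with most copies close to the start.

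The counts summed to between 15725298 and 18054436 per sample, and the lowest count of any of the 42 genes in a sample was 200. METTL16 itself had 91.5, 96.7 and 101 CPM (counts scaled by TMM to a common library total) in si-NC and 34.8, 33.9 and 34.9 CPM in si-METTL16, a log2 fold change of -1.48 ± 0.07 (SE, edgeR adjusted p = 8.34e-05). The 6 ductal epithelial markers summed to 2855 to 3928 CPM in si-NC against 3109 to 3401 CPM in si-METTL16, and the acinar markers PRSS1, CPA1 and AMY2A were at 3 counts or fewer in every sample. The fibroblast list (COL1A1, PDGFRB and DCN) summed to 323 to 374 CPM in si-NC against 801 to 839 CPM in si-METTL16, nearly all of it COL1A1, with DCN at 3 counts or fewer in every sample. The part of this shift in the results was not tested. CPM are shares of a library, so total RNA per cell was not measured, and in bulk RNA a change in the number of cells of one state and a change in RNA per cell cannot be told apart.

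After METTL16 silencing, transcripts of the ribosome biogenesis genes were more often higher than lower. A total of 18 of the 42 (42.9%) rose, where 18.4% of all tested genes did, and 5 (11.9%) fell, where 17.5% of all tested genes did, by the quasi-likelihood test of edgeR after Benjamini-Hochberg adjustment. Together 23 of 42 (54.8%) were called, beside 35.9% of all tested genes, and 19 did not pass the test. The median log2 fold change was 0.23 over the 42 genes and 0.00 over all tested genes. The 3 values of each group did not overlap for 33 of the 42 genes (78.6%), beside 50.9% of all tested genes. The changes were modest in size, since 7 genes were called with at least a 1.5-fold change, and the highest, URB2, reached 1.99-fold. Exact permutation of 3 samples against 3 gives no p below 0.1, so the p-values rest on the fit across all genes. The count of genes that fell dropped to 2 without si-NC replicate 2 or si-METTL16 replicate 1 and to 3 without si-NC replicate 3 or si-METTL16 replicate 2 or 3, while the count that rose stayed between 15 and 17.

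**Figure D2:**
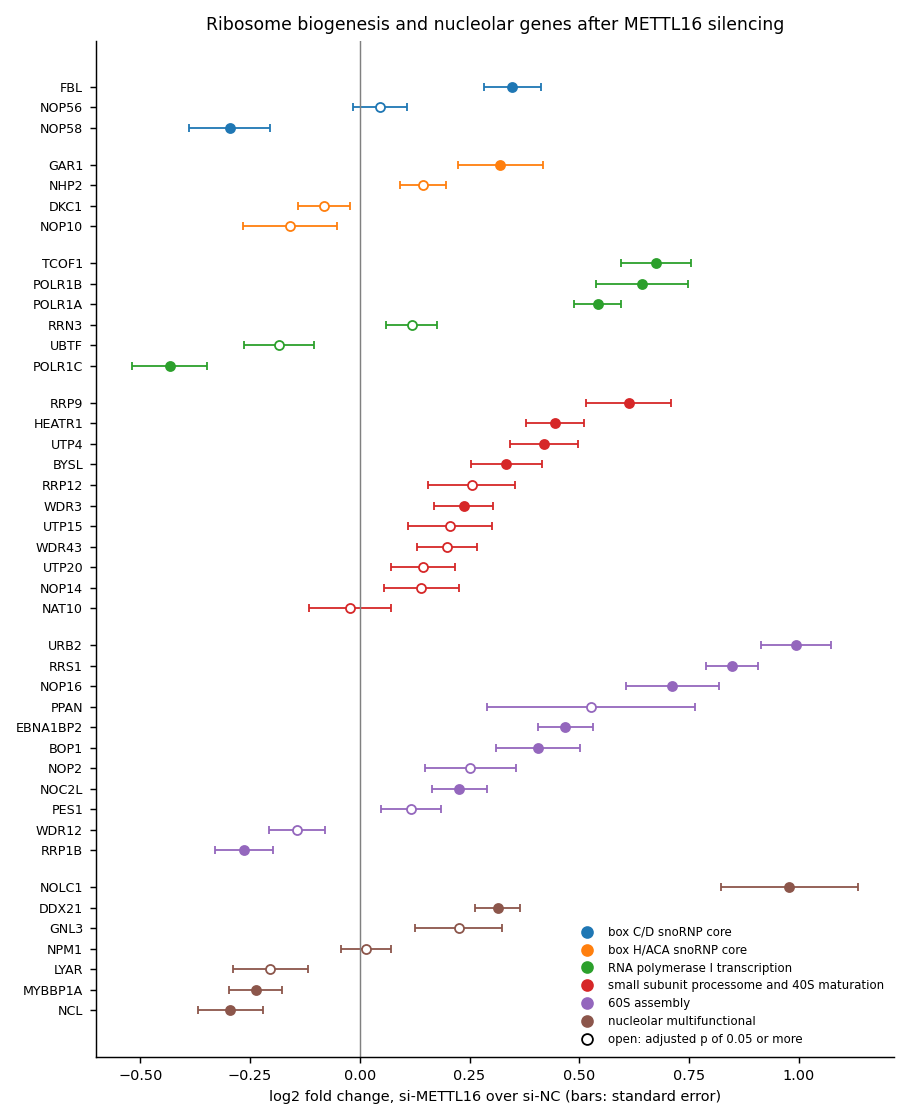
Log2 fold change of each of the 42 genes (horizontal axis, si-METTL16 over si-NC), grouped by role. Bars give the standard error derived from the edgeR F statistic, and open points mark genes with an adjusted p of 0.05 or more. Most points lie to the right of 0, from URB2 at 0.99 down to POLR1C at -0.43.

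In the box C/D core, which carries out RNA 2′-O-methylation, 1 of the 3 genes rose, 1 fell and 1 did not pass. Of all tested genes, 18.4% rose and 17.5% fell, and the difference between the 3 genes was not tested. FBL, the methyltransferase fibrillarin (chr19:39834458-39846414), had 1274, 1338 and 1314 CPM in si-NC and 1514, 1747 and 1735 CPM in si-METTL16. All 3 silenced values lay above the controls, and FBL rose by 0.35 ± 0.07 on the log2 scale (SE, edgeR adjusted p = 0.00618). NOP58 (chr2:202265716-202303666), one of the paired scaffold proteins, had 219.7, 197 and 170.3 CPM in si-NC and 158, 162 and 158 CPM in si-METTL16. The silenced values lay close together below a wide control group, and the log2 fold change was -0.30 ± 0.09 (edgeR adjusted p = 0.0424). This call was lost when any library other than si-NC replicate 3 was left out, with adjusted p between 0.0878 and 0.107 and a log2 fold change of -0.21 without si-NC replicate 1. NOP56, the other scaffold protein, had 199.8, 212 and 196 CPM in si-NC and 198, 214 and 216 CPM in si-METTL16. Its groups overlapped (log2 fold change 0.05 ± 0.06, edgeR adjusted p = 0.589).

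Of the 4 box H/ACA core genes, which form the pseudouridylation particles, 1 rose and none fell. With 18.4% of all tested genes higher and 17.5% lower, nothing is read from these counts. DKC1, the pseudouridine synthase dyskerin, had 129, 137 and 141 CPM in si-NC and 124, 131 and 130.1 CPM in si-METTL16, with overlapping groups (log2 fold change -0.08 ± 0.06, edgeR adjusted p = 0.326). GAR1 had 48.9, 56.5 and 53.2 CPM in si-NC and 63.5, 73.5 and 61.0 CPM in si-METTL16, and all silenced values were the higher ones. It rose by 0.32 ± 0.10 on the log2 scale (edgeR adjusted p = 0.0386), a call that held only without si-METTL16 replicate 3 among the 6 fits that left out a library, the other adjusted p lying between 0.0533 (without si-NC replicate 2) and 0.114 (without si-NC replicate 1). NOP10 had 121, 155 and 159 CPM in si-NC and 134, 127 and 129.6 CPM in si-METTL16. The low control value of replicate 1 spanned the silenced group (log2 fold change -0.16, edgeR adjusted p = 0.289), and without that library NOP10 was called lower (-0.28, adjusted p = 0.0216). NHP2 stood at 163 ± 4.17 CPM in si-NC against 179.9 ± 4.71 CPM in si-METTL16 (SD, n = 3), without overlap but with an edgeR adjusted p of 0.0709, and 376 of its 780 exon bases are shared with RMND5B on the opposite strand.

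Of the 6 genes of RNA polymerase I and its factors, 3 rose and 1 fell. Among all tested genes, 18.4% rose and 17.5% fell, and the difference from these 6 genes was not tested. The catalytic and second-largest subunits and the factor TCOF1 rose, a shared subunit fell, and UBTF and RRN3 did not pass. The groups did not overlap for any of them, beside 50.9% of all tested genes without overlap. For RRN3 the margin was narrow, with the highest control 0.023 and the lowest silenced sample 0.026 above the si-NC mean (log2). POLR1A, the largest subunit (chr2:86020216-86106155), had 168, 174 and 168 CPM in si-NC and 239, 246 and 257 CPM in si-METTL16, and rose by 0.54 ± 0.05 on the log2 scale (SE, edgeR adjusted p = 0.000457). POLR1B, the second-largest subunit (chr2:112541915-112577150), had 56.1, 62.3 and 61.4 CPM in si-NC and 80.0, 101 and 99.7 CPM in si-METTL16. It rose by 0.64 ± 0.10 (edgeR adjusted p = 0.0034), with replicate 1 the lowest of the silenced samples but still above every control.

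TCOF1, the nucleolar protein treacle that supports transcription of ribosomal DNA (chr5:150357629-150400308), had 40.1, 45.7 and 43.4 CPM in si-NC and 65.5, 68.8 and 72.0 CPM in si-METTL16. Every silenced value lay above every control (log2 fold change 0.68 ± 0.08, edgeR adjusted p = 0.000919). POLR1C, a subunit that RNA polymerases I and III share (chr6:43509702-43562419), had 28.8, 29.9 and 30.8 CPM in si-NC and 20.7, 22.6 and 23.0 CPM in si-METTL16. All silenced values lay below the controls, and POLR1C had the lowest log2 fold change of the 42 genes, -0.43 ± 0.09 (edgeR adjusted p = 0.00757). These 4 calls held without any 1 of the 6 libraries. UBTF, which binds the ribosomal DNA promoter, stood at 123 ± 5.96 CPM in si-NC against 108 ± 9.15 CPM in si-METTL16 (SD, n = 3, edgeR adjusted p = 0.114). RRN3, the initiation factor that recruits the polymerase, stood at 283 ± 6.31 and 308 ± 16.7 CPM (edgeR adjusted p = 0.156), and its 3 pseudogenes in the table held 9.02% of the counts of RRN3 and pseudogenes together.

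**Figure D3:**
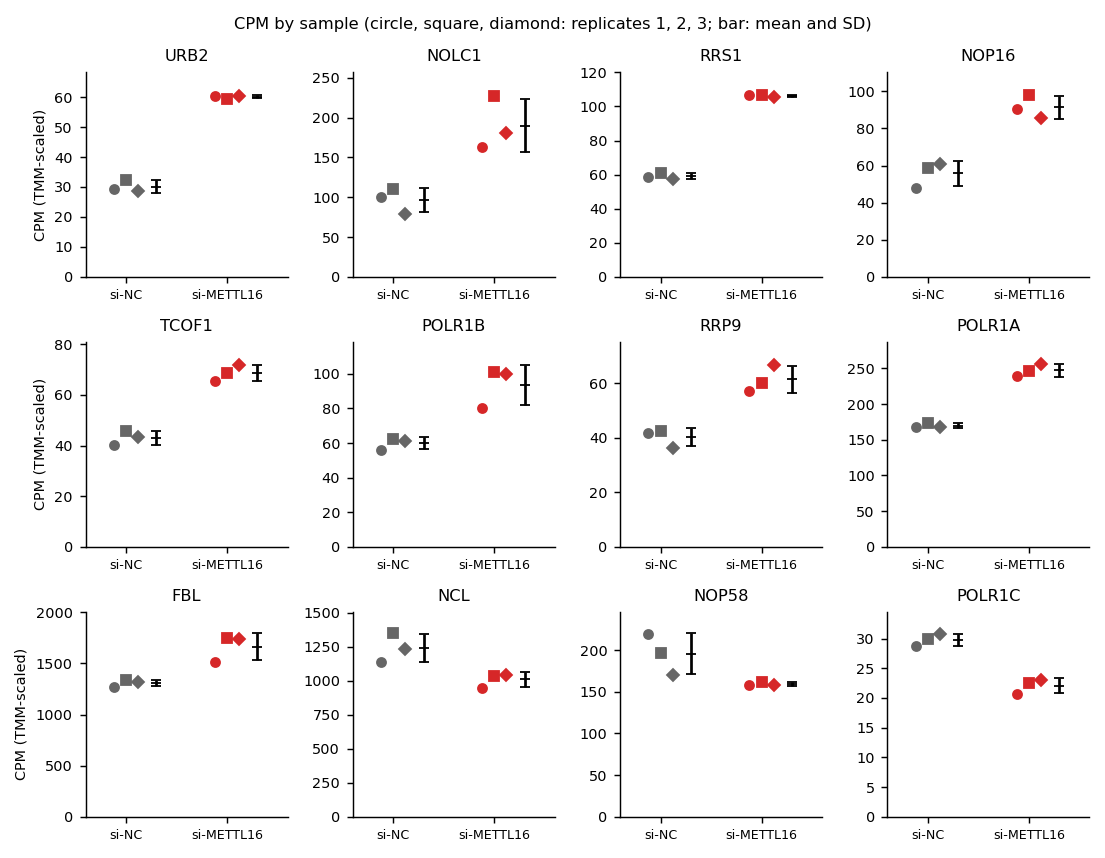
CPM (vertical axes, from 0) of 12 genes in the 3 si-NC samples (grey) and the 3 si-METTL16 samples (red), with circle, square and diamond for replicates 1, 2 and 3 and a bar for the mean and SD. URB2, NOLC1, RRS1, NOP16, TCOF1, POLR1B, RRP9, POLR1A and FBL show silenced values wholly above the controls, and NCL, NOP58 and POLR1C wholly below.

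Among the 11 genes of the small subunit processome and 40S maturation, 5 rose, none fell and 6 did not pass. The share that rose was 45.5%, beside 18.4% of all tested genes, and the median log2 fold change was 0.24. RRP9, the protein that binds the U3 small nucleolar RNA (chr3:51933430-51941941), had 41.7, 42.4 and 36.3 CPM in si-NC and 57.2, 60.2 and 66.8 CPM in si-METTL16. The groups stood well apart, with a log2 fold change of 0.61 ± 0.10 (SE, edgeR adjusted p = 0.00295). HEATR1, a processome component also linked to polymerase I transcription, stood at 139 ± 8.27 CPM in si-NC against 189 ± 7.15 CPM in si-METTL16 (SD, n = 3) and rose by 0.44 on the log2 scale (edgeR adjusted p = 0.0022). Of its 8459 exon bases, 2095 are shared with LGALS8 on the opposite strand, and without a stated use of strand reads there cannot be assigned. UTP4 rose from 47.5 ± 1.43 to 63.5 ± 4.12 CPM (log2 fold change 0.42, edgeR adjusted p = 0.00551).

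BYSL and WDR3 rose with less margin. BYSL, a 40S maturation factor, had 32.0, 30.9 and 33.9 CPM in si-NC and 39.9, 39.1 and 43.0 CPM in si-METTL16 (log2 fold change 0.33, edgeR adjusted p = 0.0171). Its groups did not overlap, and the call was lost without si-NC replicate 2 (adjusted p = 0.0587) or si-METTL16 replicate 3 (adjusted p = 0.0534). WDR3 had 86.9, 93.5 and 96.4 CPM in si-NC and 108, 113 and 105 CPM in si-METTL16 (log2 fold change 0.24, edgeR adjusted p = 0.0299). Again all silenced values were the higher ones, yet the call held only without si-METTL16 replicate 3 among the 6 reduced fits, the other adjusted p lying between 0.0535 (without si-NC replicate 3) and 0.0951 (without si-NC replicate 1).

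WDR43 had 119, 126 and 118 CPM in si-NC and 145, 142 and 128 CPM in si-METTL16. The groups did not overlap but the edgeR adjusted p was 0.0593, falling to 0.0343 without si-METTL16 replicate 3, its lowest silenced sample. RRP12, which works in export and late maturation of the subunits, had 55.2, 60.1 and 59.5 CPM in si-NC and 77.0, 60.8 and 70.8 CPM in si-METTL16. Here silenced replicate 2 sat next to the controls (edgeR adjusted p = 0.0833), and without it the adjusted p was 0.0294. UTP15, UTP20, NOP14 and NAT10, the last an RNA acetyltransferase, had log2 fold changes of 0.21, 0.14, 0.14 and -0.02 with edgeR adjusted p from 0.133 to 0.879.

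The 60S assembly factors contained 3 of the 5 highest fold changes, with 6 of 11 genes higher, 1 lower and 4 not passing. The share that rose was 54.5%, beside 18.4% of all tested genes. URB2 (chr1:229626234-229660199) had 29.5, 32.5 and 28.5 CPM in si-NC and 60.5, 59.5 and 60.3 CPM in si-METTL16. The silenced samples differed from each other by about 1 CPM, and URB2 rose by 0.99 ± 0.08 on the log2 scale (SE, edgeR adjusted p = 0.000224). RRS1, which brings the 5S ribosomal RNA particle into the 60S precursor, had 58.4, 61.1 and 57.5 CPM in si-NC and 107, 106 and 105 CPM in si-METTL16. It rose 1.80-fold (log2 fold change 0.85 ± 0.06) with the lowest adjusted p of the 42 genes (edgeR, 0.000161). NOP16 (chr5:176383938-176388975), known as a MYC-responsive nucleolar protein, had 47.9, 58.7 and 60.7 CPM in si-NC and 90.6, 97.9 and 85.7 CPM in si-METTL16. It rose by 0.71 ± 0.11 (edgeR adjusted p = 0.00237), although 215 of its 881 exon bases are shared with ARL10 on the opposite strand.

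EBNA1BP2 rose from 137 ± 5.56 CPM in si-NC to 190.2 ± 9.46 CPM in si-METTL16 (SD, n = 3, log2 fold change 0.47, edgeR adjusted p = 0.00147). BOP1, PES1 and WDR12 form the PeBoW complex, which is needed for processing toward the 60S subunit, and only BOP1 of the 3 passed the test. BOP1 had 41.1, 45.3 and 48.6 CPM in si-NC and 62.9, 54.4 and 61.6 CPM in si-METTL16 (log2 fold change 0.41, edgeR adjusted p = 0.015), without overlap, and the adjusted p was 0.0504 without si-METTL16 replicate 1. PES1 had a log2 fold change of 0.12 (edgeR adjusted p = 0.223) and WDR12 one of -0.14 (edgeR adjusted p = 0.12). The difference between the 3 subunits was not tested.

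NOC2L, of the NOC family of pre-60S transport factors, had 169, 188 and 183 CPM in si-NC and 216, 202 and 214 CPM in si-METTL16 (log2 fold change 0.23, edgeR adjusted p = 0.0279). Its groups did not overlap, but the call was lost without si-NC replicate 1 or 3 (adjusted p = 0.083 and 0.07) and without si-METTL16 replicate 1 or 3 (adjusted p = 0.0903 and 0.0792). NOC2L also shares 373 of its 2757 exon bases with SAMD11 on the opposite strand. RRP1B was the 60S factor that fell, with 78.4, 80.8 and 76.7 CPM in si-NC and 62.2, 66.3 and 68.0 CPM in si-METTL16. All its silenced values were the lower ones (log2 fold change -0.26, edgeR adjusted p = 0.0195), and the call was lost without si-NC replicate 2 (adjusted p = 0.0589) or si-METTL16 replicate 1 (adjusted p = 0.0549). NOP2, a ribosomal RNA methyltransferase, had 58.2, 55.2 and 63.0 CPM in si-NC and 61.0, 77.1 and 72.0 CPM in si-METTL16. Silenced replicate 1 lay inside the control range (edgeR adjusted p = 0.0986), and without it the adjusted p was 0.0331. PPAN was the most variable of the genes, with coefficients of variation of 25.5% in si-NC and 23.0% in si-METTL16 (log2 fold change 0.53 ± 0.24, edgeR adjusted p = 0.124), and 1374 of its 2302 exon bases are shared with the readthrough gene PPAN-P2RY11 on the same strand.

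The 7 multifunctional nucleolar proteins moved in both directions, with 2 higher, 2 lower, 3 not passing and a median log2 fold change of 0.01. Each direction held 28.6%, beside 18.4% higher and 17.5% lower of all tested genes. NOLC1, a chaperone of small nucleolar RNA particles (chr10:102152176-102163871), had 99.9, 109.8 and 79.5 CPM in si-NC and 163, 227 and 180.3 CPM in si-METTL16. Both groups were wide but stood apart, and NOLC1 rose 1.97-fold (log2 fold change 0.98 ± 0.16, edgeR adjusted p = 0.00313). DDX21, an RNA helicase that links polymerase I with later processing, rose from 591 ± 2.95 to 735 ± 35.5 CPM (SD, n = 3, log2 fold change 0.31, edgeR adjusted p = 0.00356).

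NCL, nucleolin (chr2:231453531-231483641), had 1140.1, 1349 and 1231 CPM in si-NC and 949, 1038 and 1046 CPM in si-METTL16. All silenced values lay below the controls, with a log2 fold change of -0.29 ± 0.07 (SE, edgeR adjusted p = 0.0191), and the adjusted p was 0.0504 without si-NC replicate 3 and 0.0529 without si-METTL16 replicate 1. NPM1, nucleophosmin, had 1243, 1329 and 1259.7 CPM in si-NC and 1218, 1358 and 1293 CPM in si-METTL16. Its groups overlapped fully (log2 fold change 0.01 ± 0.06, edgeR adjusted p = 0.872), and 45 NPM1 pseudogenes in the table held 22.1% of the counts of gene and pseudogenes together.

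MYBBP1A, a nucleolar protein that binds MYB, had 70.5, 73.1 and 73.3 CPM in si-NC and 61.9, 61.8 and 60.3 CPM in si-METTL16. The silenced values were the lower ones (log2 fold change -0.24, edgeR adjusted p = 0.021), and the call was lost without si-NC replicate 2 or 3 (adjusted p = 0.061 and 0.0679) and without si-METTL16 replicate 2 or 3 (adjusted p = 0.0507 and 0.0573). MYBBP1A shares 132 of its 4558 exon bases with SPNS2 on the opposite strand. GNL3, nucleostemin, had a log2 fold change of 0.22 with overlapping groups (edgeR adjusted p = 0.116). LYAR had a log2 fold change of -0.20 without overlap (edgeR adjusted p = 0.102). Limma, the tool that the methods name, called it lower on log2(FPKM + 1) (adjusted p = 0.0414) and on log2(FPKM + 0.1) (adjusted p = 0.0426). LYAR was not called by limma on voom values (adjusted p = 0.0958) or on log2(FPKM + 1) with no filter (adjusted p = 0.0723).

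**Figure D4:**
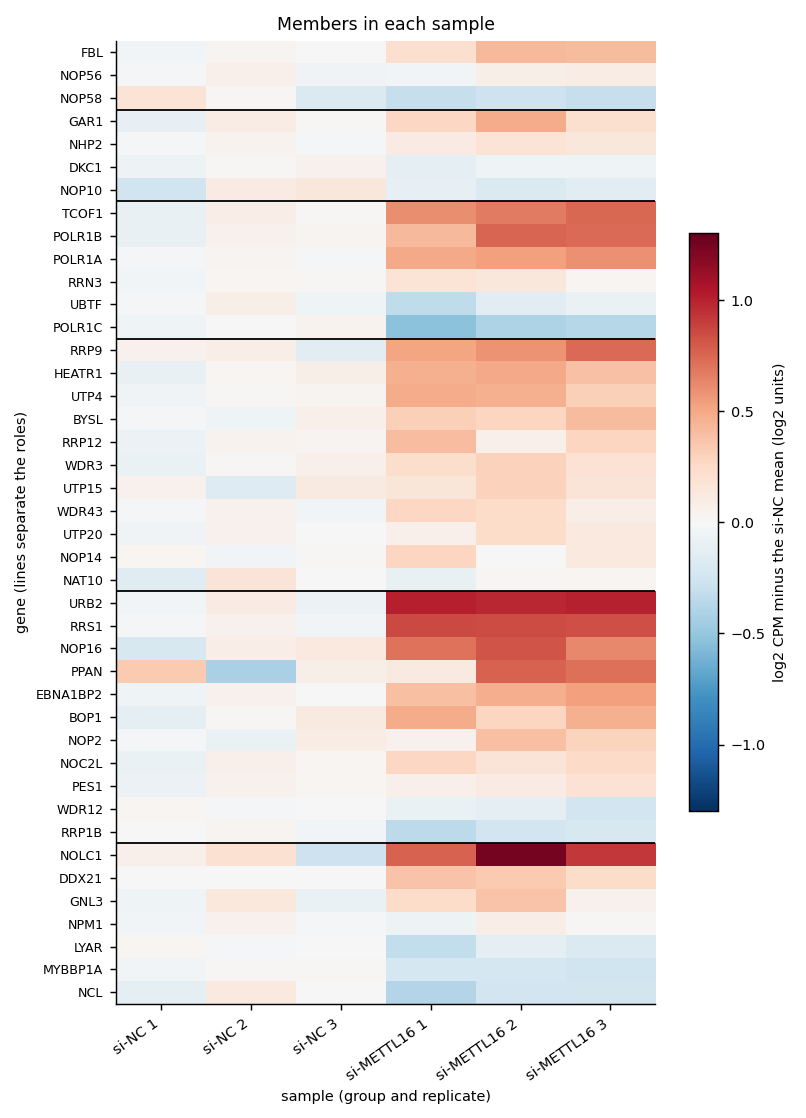
Log2 CPM of each of the 42 genes in each of the 6 samples, minus the mean of the si-NC samples (colour scale in log2 units), with genes grouped by role. The si-METTL16 columns are mostly red, with median deviations of 0.22, 0.26 and 0.18, while blue rows such as POLR1C, NOP58 and NCL occur in several roles.

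Read sample by sample, the shift was present in every silenced library. The 42 genes summed to 7797, 8368 and 8021 CPM in si-NC and to 8606, 9243 and 8982 CPM in si-METTL16. The median deviation from the si-NC mean was -0.04, 0.04 and 0.01 in the controls and 0.22, 0.26 and 0.18 in the silenced samples, on the log2 scale. Over all tested genes the median deviation was 0.0008, 0.0026 and 0.0010 in the controls and -0.0037, 0.0014 and 0.0024 in the silenced samples. Within groups, si-NC replicate 2 was the highest control for 24 of the 42 genes and replicate 1 the lowest for 24. The lowest silenced sample was si-METTL16 replicate 1 for 22 of the 42. These orders were not counted over all tested genes, so nothing is read from them about the 42 genes. The median coefficient of variation was 4.73% in si-NC and 5.41% in si-METTL16.

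MYC, whose targets many of these genes are, had 8.34, 21.0 and 4.62 CPM in si-NC and 82.5, 72.4 and 56.2 CPM in si-METTL16, a log2 fold change of 2.64 ± 0.49 (SE, edgeR adjusted p = 0.00607). Without si-NC replicate 2, the highest control, it was 3.43. The control with the highest MYC value, replicate 2, was also the one in which most of the 42 genes were highest. The control with the lowest MYC value, replicate 3, was the lowest control for 11 genes, while replicate 1 was the lowest for 24. In the silenced sample with the highest MYC value, replicate 1, 22 of the 42 genes were lowest and 13 were highest. Its median deviation of 0.22 lay between those of replicate 3 (0.18) and replicate 2 (0.26). With 3 samples per group, these orders were not tested. Among the genes with a promoter window, the 17 with CACGTG held 7 that rose and 1 that fell (median log2 fold change 0.22), and the 17 without it held 6 that rose and 2 that fell (median 0.14). Of all tested genes, 18.4% rose and 17.5% fell. URB2, NOLC1, RRS1, TCOF1 and BOP1, which rose, and NOP58 and RRP1B, which fell, had no window and are in neither count. The split therefore leaves out several of the highest fold changes, and the difference between its 2 sides was not tested. The part of MYC in the changes was not tested.

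On the length-scaled FPKM of the authors, levels in si-NC ran from 2.13 for TCOF1 to 308 for FBL, with a median of 10.6 over the 42 genes. FBL stood highest in both groups, at 308 ± 7.65 FPKM in si-NC and 386 ± 32.1 FPKM in si-METTL16 (SD, n = 3). NPM1 came next at 195 ± 6.99 FPKM, followed by NOP10 at 147 ± 21.7 and NCL at 125 ± 10.6 FPKM, and the last pair did not differ beyond their spread. NCL stood at 100.2 ± 5.75 FPKM after silencing, close to DDX21 at 96.5 ± 4.23 FPKM, where in si-NC DDX21 stood at 78.8 ± 0.345 FPKM. RRS1 moved from 34.8 ± 1.09 to 61.7 ± 0.182 FPKM.

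**Figure D5:**
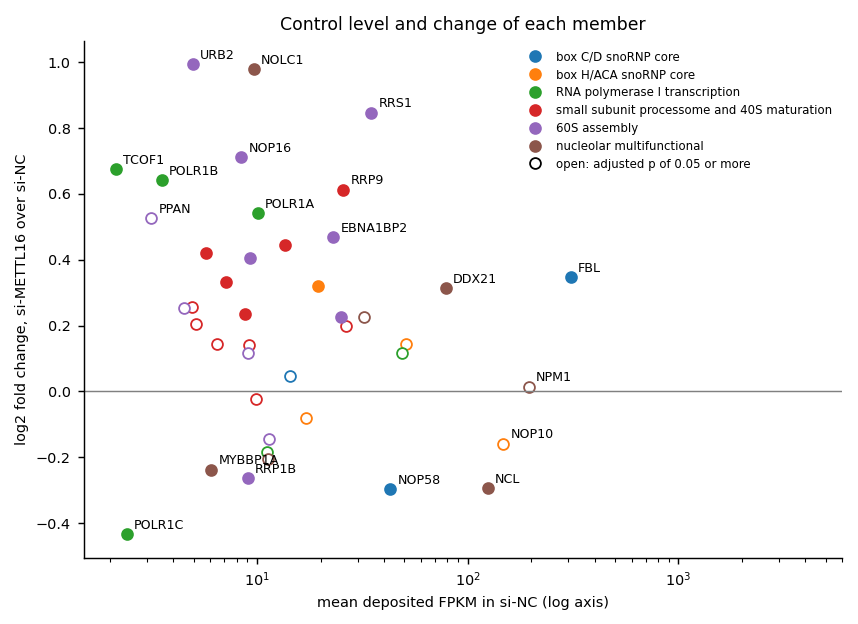
Mean FPKM in si-NC (horizontal log axis) against log2 fold change (vertical axis) for the 42 genes, coloured by role, with open points not called. The genes with the highest fold changes lie at 2.13 to 34.8 FPKM in si-NC, and those above 100 FPKM lie between -0.29 and 0.35 on the log2 scale.

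Several of these genes carry small nucleolar RNA genes inside their introns, a feature that the choice of genes did not use. By the GENCODE release 44 annotation, 8 of the 42 (NOP56, NOP58, DKC1, POLR1C, WDR43, PPAN, NCL and GNL3) held 26 snoRNA genes, all within introns. None of the 8 hosts was called higher and 3 were called lower (NOP58, POLR1C and NCL), with a median log2 fold change of -0.02. The other 34 genes held 18 that rose and 2 that fell, with a median of 0.25. Over all 263 tested host genes of the annotation, 56 rose and 45 fell (median 0.03). With 18.4% of all tested genes higher and 17.5% lower, 0 and 3 of 8 are small counts from which nothing is read about hosts. The difference between hosts and the rest was not tested, and the snoRNAs themselves had at most 19 counts each over the 6 samples.

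Of 135 other tested ribosome biogenesis genes, 41 rose (30.4%, beside 18.4% of all tested genes), 15 fell (11.1%, beside 17.5%) and 79 did not pass, with a median log2 fold change of 0.12. The highest were the processome helicase DHX37 (26.8 to 47.6 CPM, log2 fold change 0.83, edgeR adjusted p = 0.00117), the kinase RIOK1 (30.4 to 52.7 CPM, 0.79, adjusted p = 0.00184) and the 60S release factor SBDS (51.0 to 85.9 CPM, 0.75, adjusted p = 0.000326). The lowest were the polymerase I subunit POLR1G (30.2 to 12.8 CPM, log2 fold change -1.24, edgeR adjusted p = 0.000948), SURF6 (44.2 to 22.7 CPM, -0.96, adjusted p = 0.000267) and the RNase P and MRP subunit POP4 (36.6 to 20.5 CPM, -0.84, adjusted p = 0.019). POLR1G shares 1593 of its 2822 exon bases with ERCC1 on the opposite strand, and the POP4 call was lost without si-METTL16 replicate 2 (adjusted p = 0.0573) or 3 (adjusted p = 0.0581). The 60S assembly genes of this wider list held 18 that rose and 8 that fell of 53, the small subunit genes 13 and 2 of 42, and the snoRNP assembly genes 4 and 1 of 9. The other RNA polymerase I genes held 2 and 2 of 10, and the proteins of the RNA exosome and RNase MRP held 4 and 2 of 21 (19.0% higher, near the share of all tested genes). Of the 79 genes of the cytosolic ribosomal proteins, 10 were higher (12.7%, beside 18.4% of all tested genes) and 17 lower (21.5%, beside 17.5%). Their median log2 fold change was -0.01, and the difference from all tested genes was not tested.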

How the data were processed

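RNA-seq data of 6 PANC-1 samples were used, grouped by their titles. For each gene the authors deposited a raw count and an FPKM value, which is the count scaled by gene length and library total. The submitters' processing notes name HISAT2 2.0.4, StringTie 1.3.0 and GRCh38, with roles not stated. The counting program, the annotation release and the use of strand are not given in the sources used here. Libraries came from a SMARTER mRNA kit. Gene coordinates are those of the deposited table, and 13 of the 42 genes start and end at the same bases in GENCODE release 44, which was used for exon overlaps and snoRNA genes.

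Counts were scaled by TMM, filtered with filterByExpr (minimum count 10, minimum total 15) and tested by the quasi-likelihood method of edgeR 4.0.16 (glmQLFit, then glmQLFTest, under R 4.3.3). P-values were adjusted over 15089 genes by Benjamini-Hochberg and read at 0.05. The standard errors were derived as the absolute log2 fold change divided by the square root of the F statistic of this test. The methods of the study name limma, which was run as an alternative. The biological coefficient of variation was 16.5%. The genes and lists were chosen with earlier results of these data known. Values in every sample are given for the box C/D core, DKC1, NCL, NPM1, POLR1A, POLR1B, the 8 highest and 5 lowest fold changes, and genes whose call depends on 1 library, and of the wider list the 3 highest and 3 lowest called genes are named. Alternatives were a replicate block, each sample left out, other filters, DESeq2 1.42.0, limma 3.58.1 on voom values and on log2(FPKM + 1) or log2(FPKM + 0.1) where the mean FPKM reached 1, and a threshold of 0.01. The edgeR fit was tested on simulated counts, and the other steps were not. Python 3.11.15 was used for sequences and figures.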

Additional observations from a re-analysis of the deposited data

How the results depend on the processing

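Of the 23 genes called among the 42, 14 kept their call under all 15 alternatives other than the threshold of 0.01, 9 lost it under at least 1, and none reversed. Leaving out 1 library gave 4159 to 4526 called genes against 5418, 15 to 17 of the 42 higher against 18, 2 to 5 lower against 5 (2 without si-NC replicate 2 or si-METTL16 replicate 1), a median log2 fold change of 0.19 to 0.25, and 28 to 35 higher and 12 to 14 lower in the wider list. Limma on log2(FPKM + 1) called 6 of the 42 lower, LYAR among them, and 3 with no filter. At an adjusted p under 0.01, 3035 genes were called, with 13 of the 42 higher and 1 lower, and 24 higher and 9 lower in the wider list. Genes near 0 changed sign. NAT10 ranged from -0.10 to 0.057 with 1 library left out, being positive without si-NC replicate 2 or si-METTL16 replicate 1 (0.012). NPM1 ranged from -0.027 to 0.050, being negative without si-NC replicate 1 (-0.010) or si-METTL16 replicate 2, and was -0.0085 by limma on FPKM with either pseudocount and with no filter. The cause of these changes was not tested. Same-numbered samples correlated by 0.0253 to 0.0371 in their deviations, too little to treat the numbers as pairs, although each correlated best with its own number. With the replicate number as a block, 21 of the 42 were called (17 higher, 4 lower), NOP58, WDR3 and NOC2L losing their call and GNL3 gaining one (adjusted p = 0.0397), and 5013 genes in all. The lowest count of a gene in a sample was 200, and the shares of counting error and of differences between samples in the spread were not separated.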
